A study of Mus musculus with 10 samples.

Results

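The MEF2 transcription factors and the class IIa histone deacetylases (HDACs) were followed in long-term hematopoietic stem cells (LT-HSCs) sorted from fetal livers at E14.5. The set held the 3 MEF2 genes Mef2a, Mef2c and Mef2d and the 4 class IIa genes Hdac4, Hdac5, Hdac7 and Hdac9, 7 of the 17404 genes in the count table, and was chosen with the difference between the genotypes already known. KO embryos were Tnfrsf11aCre; Spi1f/f (n = 6) and WT embryos were Tnfrsf11a+/+; Spi1f/f (n = 4), so both genotypes carried floxed Spi1 alleles, on a C57BL/6 background. Spi1 encodes PU.1, and the Cre is driven by the Tnfrsf11a locus in precursors of macrophages, so that macrophages are depleted while the sorted LT-HSCs are not the intended target. The libraries were bulk RNA, each labelled as a separate sample, and a value can therefore reflect fewer cells of a type or less RNA per cell, which cannot be told apart.

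MEF2 factors are MADS box transcription factors that bind an A/T-rich element as dimers and drive muscle, neuronal, endothelial and lymphoid genes. Class IIa HDACs dock on MEF2 through their N-terminal part, recruit the NCoR/SMRT complex with its catalytically active class I enzyme, and thereby hold MEF2 targets silent. Kinases of the CaMK, PKD, SIK and MARK families phosphorylate class IIa HDACs, 14-3-3 proteins bind the phosphorylated form and keep it in the cytoplasm, and MEF2 is released to activate transcription.

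Some members are built from alternative exons, and the reads of others lay on annotated transcripts that keep an intron; the sequences that tell these forms apart are printed in the next lines. Mef2c has a pair of mutually exclusive exons of 144 and 138 bases and a short exon of 24 bases, on the plus strand of GRCm38 at chr13:83625265-83625408, chr13:83625470-83625607 and chr13:83654598-83654621. In none of the 31 annotated Mef2c transcripts did the first 2 occur together.
Mef2c 144-base exon: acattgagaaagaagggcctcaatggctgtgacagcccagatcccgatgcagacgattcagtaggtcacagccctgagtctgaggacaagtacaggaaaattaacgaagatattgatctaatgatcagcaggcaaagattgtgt
Mef2c 138-base exon: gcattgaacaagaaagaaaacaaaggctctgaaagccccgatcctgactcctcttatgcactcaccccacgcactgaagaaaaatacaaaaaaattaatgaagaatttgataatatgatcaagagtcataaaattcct
Mef2c 24-base exon: tctgaggatgtggatctgctgttg

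For 3 of the 4 class IIa HDACs, the retained-intron transcript with the largest share of TPM began inside an intron and ran on into a coding exon in the 3′ part of the gene. The lines hold 30 bases of that intron in capitals and the first 30 bases of the exon in lower case, all on the minus strand of GRCm38 at chr1:91934657-91934716, chr11:102197756-102197815 and chr15:97794036-97794095.
Hdac4-210: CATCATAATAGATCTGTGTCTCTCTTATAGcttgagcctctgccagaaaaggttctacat
Hdac5-218: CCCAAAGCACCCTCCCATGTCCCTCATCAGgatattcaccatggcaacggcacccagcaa
Hdac7-211: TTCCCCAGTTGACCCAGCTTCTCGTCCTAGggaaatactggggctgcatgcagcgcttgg

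The libraries held between 5315435 and 30941726 counts on genes. Every one of the 10 LT-HSC markers was detected, and their summed level was 703 to 1721 CPM in KO and 499 to 742 CPM in WT libraries, where CPM is the count scaled to library size with TMM. Markers of other cells were present too. The 10 endothelial markers, led by Stab2 and Lyve1 of the liver sinusoids, summed to 1561 to 8636 CPM in KO and 720 to 5501 CPM in WT. Their sum was above that of the LT-HSC markers in 10 of 10 libraries. CPM is not corrected for transcript length, so these sums do not compare numbers of transcripts between the lists. Macrophage markers summed to 153 to 765 CPM in KO and 36.3 to 636 CPM in WT, and Marco, a scavenger receptor of macrophages, had no count in any KO library and 32 to 193 counts in WT. The macrophage sum was carried by Mrc1, a mannose receptor also made by sinusoidal endothelium, with a mean of 329 CPM in KO and 283 CPM in WT, while 8 of the 10 macrophage markers tested were lower in KO and 1 (Marco) was past the threshold used for all genes, an adjusted p of 0.1 in edgeR. Erythroid markers ranged from 1105 to 32652 CPM in KO and from 1414 to 82709 CPM in WT, and B lymphoid markers were low, at 15.2 to 58.2 CPM. The 7 granulocyte markers summed to 10.7 to 1157 CPM in KO and 6.07 to 2066 CPM in WT. Of these, 4 were higher and 3 lower in KO, and 0 were past the threshold. Spi1 itself was at 9.10 to 101 CPM in KO and 6.22 to 50.1 CPM in WT, counted over the whole gene, so this is no measure of excision. Levels also followed transcript length: the Spearman correlation of a library's deviation with transcript length across 16285 genes lay between 0.067 and 0.150 in KO libraries, and between -0.158 and -0.088 in WT libraries. Across these genes, length and the log2 fold change between KO and WT had a Spearman correlation of 0.22.

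Mef2c was the member with the clearest difference between the genotypes. Mef2c (GRCm38 chr13:83504034-83667080, plus strand), the MEF2 factor best known in B cells, megakaryocytes and heart, lay at 49.3, 101, 111 and 114 CPM in the 4 WT libraries and between 164 and 227 CPM, with a median of 204 CPM, in the 6 KO libraries. All 6 KO libraries lay above the highest WT library, and WT replicate 1 was far under the other 3. The log2 fold change, KO minus WT, was 1.10 ± 0.23 (SE), from 94.0 ± 30.4 CPM (SD, n = 4) in WT to 201 ± 21.4 CPM (SD, n = 6) in KO. Because the members were picked on this contrast, their values are a description and no p-value is attached to them.

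Of the 7 members, 1 (Mef2c) was past an adjusted p of 0.1 in edgeR's quasi-likelihood fit over all genes and higher in KO, against 1.32% of the 16725 genes tested, and 0 members were past it and lower in KO, against 2.67%. Under the study's own settings in DESeq2, a log2 fold-change threshold of 0.1, Mef2c and Hdac9 were past it, against 4.10% of the genes tested that were higher in KO. At an adjusted p below 0.05 no gene of the 16725 was past the threshold in edgeR, where 3139 genes, or 18.8%, had an unadjusted p under 0.05, and 691 genes were past it in DESeq2 with the fold-change threshold. Mef2c lost its place with a smooth offset for transcript length (but not with average-length offsets) and when Xist was a covariate. It also lost its place when any one of KO replicates 1, 2, 4, 5 and 6 or WT replicate 1 was left out. Most of these fits called almost nothing among all genes. The number was 0 with Xist and without KO replicate 1, 2, 5 or 6 or WT replicate 1, and 1 without KO replicate 4. With the smooth length offset 330 genes were still called. The log2 fold changes of Mef2c lay between 0.82 and 1.28 over all 20 alternatives.

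Mef2a and Mef2d had smaller differences. Mef2a (chr7:67231163-67372858, minus strand), found in most tissues, lay at 27.2, 49.3, 46.3 and 52.2 CPM in WT and between 49.6 and 99.0 CPM, with a median of 60.6 CPM, in KO. Its log2 fold change was 0.57 ± 0.25 (SE). Mef2d (chr3:88142372-88172086, plus strand), likewise widespread, lay at 46.5, 51.3, 48.9 and 25.05 CPM in WT and between 34.6 and 85.9 CPM, with a median of 68.5 CPM, in KO, with a log2 fold change of 0.59 ± 0.28 (SE). In each of these genes 5 of 6 KO libraries lay above the highest WT library and the groups overlapped. The low WT library was replicate 1 for Mef2a and replicate 4 for Mef2d.

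Hdac9 had the largest fold among the members and the lowest level. Hdac9 (chr12:34047580-34917095, minus strand), a class IIa enzyme whose gene also makes short forms without a deacetylase domain, had between 6 and 181 counts in a library. It lay at 0.455, 2.04, 3.33 and 0.991 CPM in WT and between 5.01 and 9.80 CPM, with a median of 5.49 CPM, in KO, so that the groups did not overlap. The log2 fold change was 1.84 ± 0.61 (SE).

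Hdac4, Hdac5 and Hdac7 showed differences of less than 0.5 on the log2 scale. Hdac4 (chr1:91928779-92195699, minus strand), which holds back MEF2 in muscle and cartilage, lay at 34.0, 29.4, 34.8 and 37.8 CPM in WT and between 38.8 and 51.4 CPM, with a median of 45.3 CPM, in KO. These groups did not overlap, although the log2 fold change was only 0.41 ± 0.18 (SE). Hdac7 (chr15:97792664-97844502, minus strand), a class IIa enzyme of endothelial cells, thymocytes and B cell precursors, lay at 81.6, 124, 96.05 and 78.0 CPM in WT and between 94.5 and 156 CPM, with a median of 142 CPM, in KO, a log2 fold change of 0.49 ± 0.21 (SE). Hdac5 (chr11:102194432-102230166, minus strand), a stress-responsive repressor of MEF2 in heart, lay at 15.8, 35.0, 43.1 and 48.4 CPM in WT and between 29.0 and 52.5 CPM, with a median of 42.2 CPM, in KO, a log2 fold change of 0.21 ± 0.30 (SE). Of the KO libraries, 4 of 6 for Hdac7 and 1 of 6 for Hdac5 lay above the highest WT library.

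**Figure D1:**
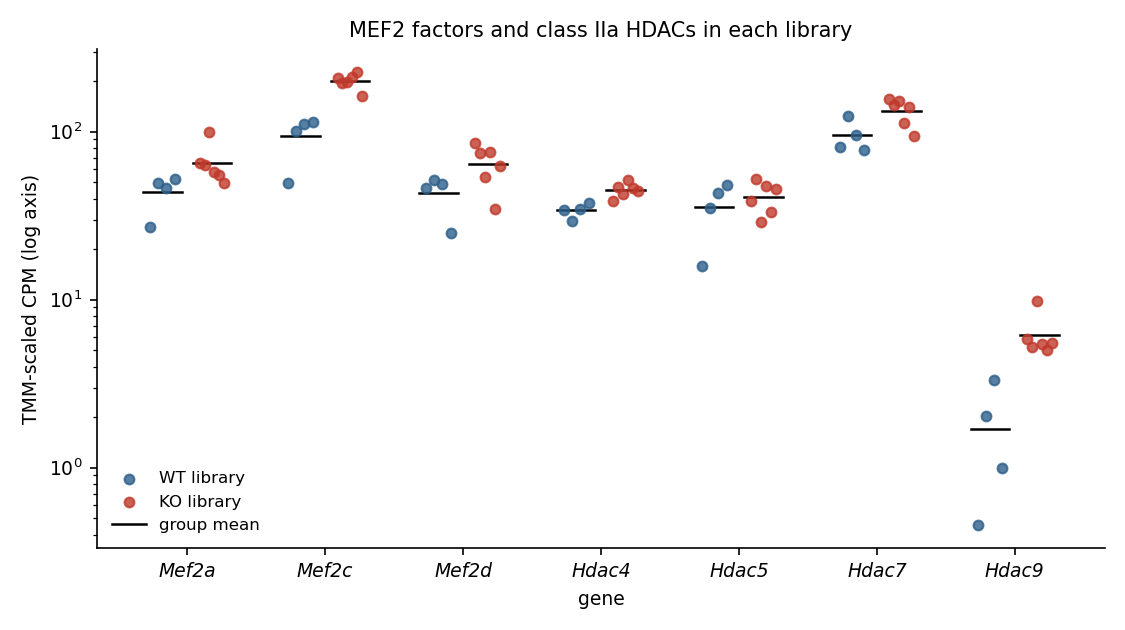
CPM of each member in every library on a log axis, with WT libraries in blue, KO libraries in red and a bar at the group mean. KO and WT points do not overlap for Mef2c, Hdac4 and Hdac9, and Hdac9 is the lowest gene in both groups.

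Over the members, 3 of 7 genes (Mef2c, Hdac4 and Hdac9) had all 6 KO libraries above all 4 WT libraries, a pattern shown by 2.88% of the genes tested. The members' log2 fold changes were all above 0 with a median of 0.57, against a median of 0.06 and 53.1% above 0 over all genes tested. In the 6204 genes whose mean transcript length fell in the members' range, 1766 to 3270 bases, the median was 0.18 and 60.3% were above 0. This length is the plain mean over a gene's annotated transcripts, not weighted by level. It was 2228 bases for Hdac4 and 1980 for Mef2d, while most of their counts lay on transcripts of 8100 and 5401 bases. For Hdac7 it was 3270 bases against 1572 for Hdac7-211. The smooth term used the same lengths, so neither step matches the length of the RNA present. With a smooth term for transcript length the median of all genes moved to -0.12, and the members ranged from 0.03 for Hdac5 to 1.53 for Hdac9, with Mef2c at 0.82. The LT-HSC markers had a median log2 fold change of 1.27, with 9 of 10 higher in KO and 4 of 10 past the threshold. The 1 that was lower was Ly6a, at -0.88. The median of the endothelial markers was 0.31, with 8 of 10 higher in KO. Of these, 0 of 10 were past the threshold in edgeR, 0 at an unadjusted p under 0.05 and 0 in DESeq2. The 6 megakaryocyte markers were all higher in KO, with a median of 1.09, and 0 of them were past it in edgeR, 1 at an unadjusted p under 0.05 and 0 in DESeq2. The 6 hepatoblast markers were likewise all higher, with a median of 0.65, and 0 of them were past it in edgeR, 0 at an unadjusted p under 0.05 and 0 in DESeq2. The 8 erythroid markers were all lower in KO, with a median of -1.47 and 1 (Epor) past the threshold, and 8 of 10 macrophage markers were lower. The part of any of these cells in the members' values was not tested.

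The same reads, split by annotated transcript, gave another picture for the class IIa HDACs. The transcript tables hold kallisto's estimated counts and TPM, an abundance corrected for length. In Hdac7 a single retained-intron transcript of 1572 bases, Hdac7-211, held 86.6% of the gene's TPM and 72.7% of its estimated counts on average. It starts with 380 bases of the intron before exon 23 and runs through the last 2 of the 24 exons of Hdac7-206, with which it shares 1191 bases, so that only reads in the 380 bases, or a lack of reads from the rest of the gene, set it apart. Among 5893 genes that have both protein-coding and retained-intron transcripts and a mean of at least 100 estimated counts, the median retained-intron share was 4.59%, and only 91 genes had a larger share than the 74.0% of Hdac7.

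Hdac5 had the next largest retained-intron share, 54.2% of estimated counts on average, exceeded by 245 of the 5893 genes. Its main retained-intron form, Hdac5-218, has 83 intronic bases at its start and shares 840 of its 1008 bases with the coding transcript Hdac5-204. Hdac4 differed by scale: its coding transcript Hdac4-202 of 8100 bases held 88.6% of estimated counts but 45.6% of TPM, whereas the 589-base retained-intron form Hdac4-210 held 4.91% of estimated counts and 37.4% of TPM. Hdac9 and the MEF2 genes were mostly coding, with 97.5% of estimated counts on protein-coding transcripts for Hdac9, 99.6% for Mef2d, 95.4% for Mef2c and 92.8% for Mef2a.

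**Figure D2:**
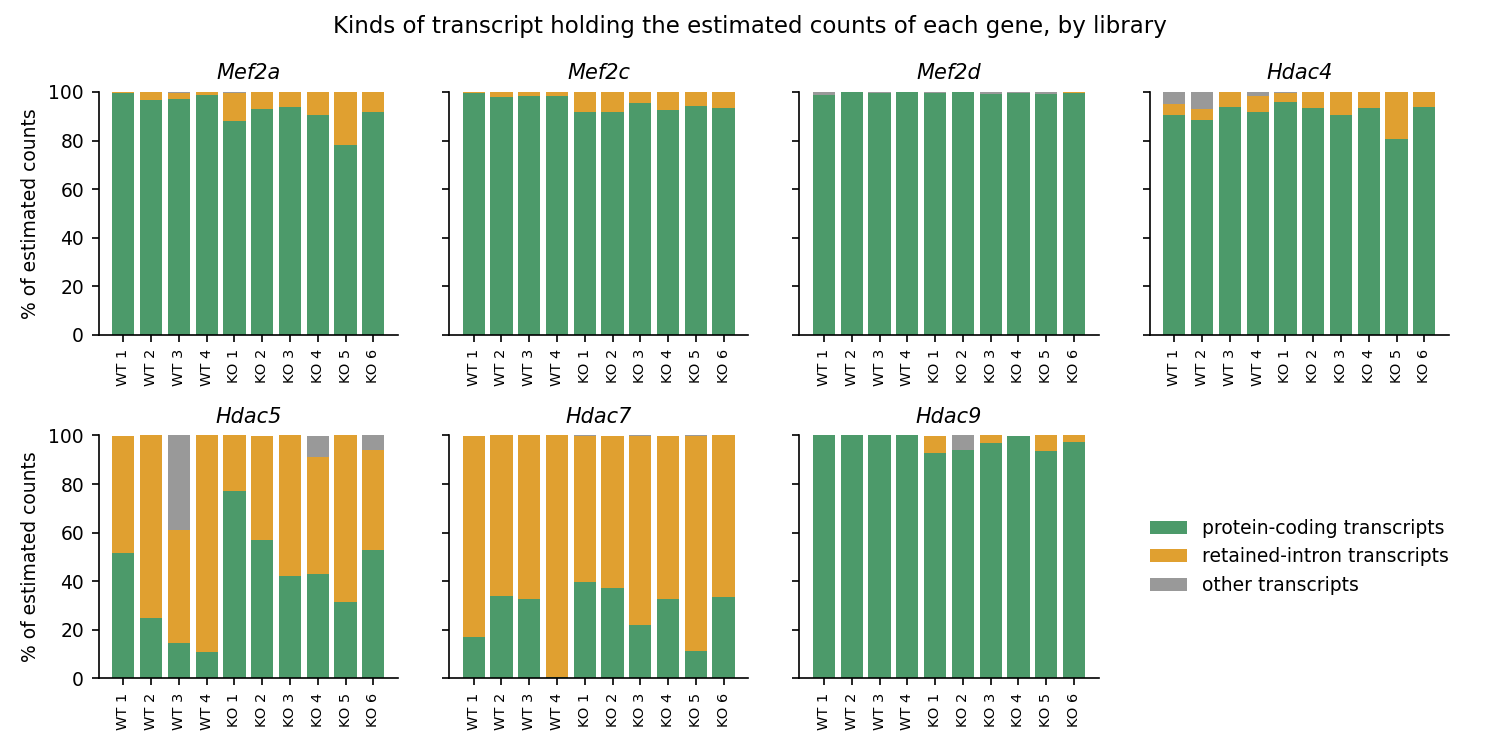
Share of each member's estimated counts, in percent, on protein-coding, retained-intron and other annotated transcripts, one bar per library. Retained-intron transcripts fill most of Hdac7 in every library and a variable part of Hdac5, while Mef2d is almost wholly protein-coding.

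In CPM, the coding part of Hdac5 separated the genotypes although the gene total did not. On protein-coding transcripts alone Hdac5 lay at 8.11, 8.64, 6.19 and 5.24 CPM in WT and between 10.5 and 29.96 CPM, with a median of 22.3 CPM, in KO, so that all 6 KO libraries lay above the highest WT library, as did 2.39% of 15334 genes counted this way. That count leaves out Hdac5-205, annotated as subject to nonsense-mediated decay, which held 38.8% of the Hdac5 counts of WT replicate 3. With the transcripts outside both classes added to the coding ones, WT replicate 3 lay at 22.9 CPM, above KO replicates 3 and 5 at 12.2 and 10.5 CPM, so that the groups overlapped and 4 of 6 KO libraries lay above all WT libraries. On its retained-intron transcripts the ranges overlapped, 7.67 to 43.2 CPM in WT and 8.89 to 22.9 CPM in KO. An edgeR fit on protein-coding transcripts, chosen after the data were seen, gave Hdac5 a log2 fold change of 1.63 ± 0.38 (SE) against 0.21 for the whole gene. The coding TPM of Hdac5 did overlap, because a short coding transcript took it to 10.4 TPM in WT replicate 4, against 0.984 to 3.99 TPM in the other WT libraries and 2.50 to 10.8 TPM in KO.

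Hdac7 showed no such separation. Its coding transcripts lay at 13.8, 42.2, 31.2 and 0.240 CPM in WT and between 15.7 and 61.6 CPM in KO, and the coding-only log2 fold change of 0.85 carried an SE of 0.77. WT replicate 4 assigned 99.7% of its Hdac7 counts to retained-intron transcripts. Whether the counts on the retained-intron transcripts of Hdac5 and Hdac7 come from retained introns or from reads of the 3′ exons that kallisto assigned to them was not tested. For Mef2a, Mef2c, Mef2d, Hdac4 and Hdac9 the coding-only log2 fold changes of 0.49, 1.06, 0.63, 0.45 and 1.81 were close to those of the whole genes.

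**Figure D3:**
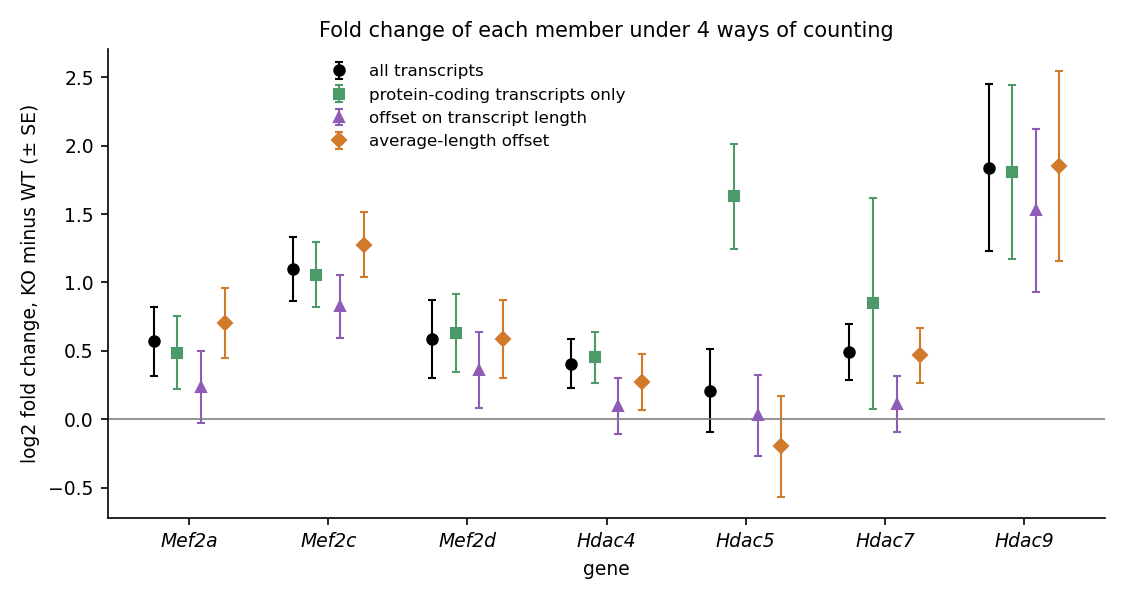
Log2 fold change, KO minus WT, of each member with its SE for all transcripts, for protein-coding transcripts alone, with an offset for transcript length and with an offset for each library's average transcript length. Hdac5 ranges from -0.20 with the average-length offset to 1.63 on protein-coding transcripts, and the length offset lowers every member.

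Intron-holding transcripts of 2 MEF2 genes took a larger share in KO. For Mef2c they made up 0.247 to 2.18% of estimated counts in WT and 4.72 to 8.25% in KO, or 1.43 ± 0.903 CPM (SD, n = 4) against 13.7 ± 3.20 CPM (SD, n = 6). For Mef2a they made up 0.574 to 3.20% in WT and 6.04 to 21.8% in KO. Neither pair of ranges overlapped, a pattern with KO above WT that 6.19% of the 5893 genes showed, and the median difference over those genes was 0.67 percentage points. Over all transcripts, retained-intron models held 4.42 to 5.42% of a library's estimated counts in KO and 3.49 to 5.24% in WT.

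The Mef2c mRNA carried the 144-base exon in both genotypes. Transcripts with it held 64.2 to 79.7% of the gene's estimated counts in KO and 71.1 to 81.3% in WT, whereas those with the 138-base exon, the form known from skeletal muscle, held 0.504 to 2.07% in KO and 0.130 to 2.34% in WT. Transcripts with the 24-base exon held 38.1 to 46.4% in KO and 39.2 to 64.1% in WT, and 3 transcripts that span the pair of exclusive exons without either held 11.6 to 22.6% in KO and 1.35 to 14.9% in WT. Each pair of ranges overlapped. By TPM, 4 Mef2c transcripts held at least 10% on average, namely Mef2c-230 with 22.5%, Mef2c-219 with 20.3%, Mef2c-227 with 15.3% and Mef2c-212 with 13.99%, and Mef2c-212 was the largest by estimated counts with 36.5%.

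The other members leaned on few transcripts. Mef2d-201 held 87.5% of the gene's TPM, and Mef2a-208 held 65.6% of its gene with Mef2a-201 at 17.8%. Hdac9-201 held 60.4% on average but 18.7 to 83.4% in single KO libraries, with Hdac9-202 at 10.9% and Hdac9-203 at 10.4%, on few counts. In Hdac4, the short coding form Hdac4-206 held 10.7%, and in Hdac5, Hdac5-218 held 37.9%, Hdac5-211 15.2% and the coding Hdac5-204 12.9%.

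Levels between members were compared per length, as TPM summed over all transcripts of a gene. In WT the order was Hdac7 with 43.7 ± 13.98 TPM, Mef2c with 30.8 ± 7.63, Hdac5 with 29.8 ± 19.6, Hdac4 with 7.36 ± 1.77, Mef2a with 7.14 ± 2.27, Mef2d with 7.06 ± 2.60 and Hdac9 with 0.406 ± 0.405 TPM (SD, n = 4). Hdac7 was above Mef2c in 3 of 4 WT libraries and Mef2c above Hdac5 in 2 of 4, and Hdac4, Mef2a and Mef2d differed by less than their spread. In KO, Mef2c led with 103 ± 26.4 TPM, ahead of Hdac7 with 78.5 ± 20.5 TPM in 5 of the 6 libraries, and Hdac9 was again last with 1.94 ± 0.796 TPM (SD, n = 6).

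The order changed when only protein-coding transcripts were counted. Mef2c then led in both genotypes, with 30.2 ± 7.39 TPM in WT (SD, n = 4) and 94.2 ± 23.9 TPM in KO (SD, n = 6), and Mef2a was next. Coding Hdac7 had rank 4, with 4.62 ± 4.48 TPM in WT (SD, n = 4) and 11.5 ± 5.95 TPM in KO (SD, n = 6). Coding Hdac5 in WT was at 4.30 ± 4.29 TPM (SD, n = 4), a spread as large as its mean.

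Reads on both strands were counted, as the protocol keeps no strand, so genes on the opposite strand may share them. The antisense gene Gm26720 covers 22.4% of the annotated exonic bases of Hdac4, and 1700113A16Rik covers 8.87% of those of Mef2d. For Mef2a and Hdac7 the share was at most 2.06%, and Mef2c and Hdac9 had no such overlap. The gene that overlaps Hdac5, Mir8101, lies on the same strand as Hdac5 and covers 1.26% of its exonic bases.

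Partners, regulators and targets of the members were tested with the same fit, in 10 lists of 76 genes of which 74 could be tested. Of these, 5 passed an adjusted p of 0.1, or 6.76%. Among all genes tested the share was 3.99% in either direction, 1.32% higher in KO and 2.67% lower. The 4 regulator genes that rose were the kinases Camkk2 and Sik1 and the MEF2 target genes Nr4a1 and Jun, and the 1 that fell was Gps2. Without any one of KO replicates 1, 2, 4, 5 and 6 or WT replicate 1, and with Xist as a covariate, 0 of them passed in edgeR. Among all genes 0 passed in these fits too, except without KO replicate 4, where 1 did. At an unadjusted p under 0.05 there were 18 of the 74 in the full fit and 8 to 18 in these fits. Across the 74 genes, 48 log2 fold changes were above 0 and their median was 0.25.

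Among the 19 kinases of class IIa HDACs, 2 rose and 0 fell. Sik1, a salt-inducible kinase that phosphorylates class IIa HDACs, lay at 6.67, 14.9, 10.4 and 2.97 CPM in WT and between 12.4 and 72.7 CPM, with a median of 43.2 CPM, in KO, a log2 fold change of 2.30 ± 0.59 (SE, edgeR adjusted p = 0.085). Camkk2, the kinase that switches on CaMKI and CaMKIV, had a log2 fold change of 1.02 ± 0.29 (SE, edgeR adjusted p = 0.096), with WT libraries at 9.25, 11.7, 15.1 and 21.9 CPM and KO libraries between 21.8 and 36.0 CPM. For each, 5 of 6 KO libraries lay above all WT libraries. Both kinases passed under the study's own DESeq2 settings. Neither passed with the smooth length offset, where 330 genes were still called, or on protein-coding transcripts alone, where 178 were. Camkk2 also did not pass with average-length offsets or without edgeR's robust option, where Sik1 did. Camk2d missed the threshold in the main fit with a log2 fold change of 1.07 (edgeR adjusted p = 0.101), and was named after its value was seen. It passed under the study's own DESeq2 settings, and in edgeR with DESeq2 size factors or with the filterByExpr gene filter.

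Of the 7 MEF2 target genes tested, 2 rose and 0 fell. Nr4a1, an orphan nuclear receptor repressed by class IIa HDACs in thymocytes and also an immediate-early gene, lay at 9.10, 26.6, 34.3 and 14.3 CPM in WT and between 31.9 and 383 CPM, with a median of 177 CPM, in KO, a log2 fold change of 3.24 ± 0.71 (SE, edgeR adjusted p = 0.082). Jun, another immediate-early gene and a subunit of AP-1 that shares 7.28% of its exonic bases with the antisense gene Junos, lay at 32.3, 93.7, 79.3 and 54.8 CPM in WT and between 84.6 and 289 CPM, with a median of 204 CPM, in KO, a log2 fold change of 1.62 ± 0.35 (SE, edgeR adjusted p = 0.082). In both genes KO replicate 3 was the lowest KO library and lay within the WT range. Klf2 and Klf4, MEF2 targets in endothelial cells, had log2 fold changes of -0.20 and -0.29 and did not pass, and Ppargc1a, a mitochondrial coactivator, had 1.74 ± 0.70 (SE, edgeR adjusted p = 0.205).

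In the NCoR/SMRT complex, 1 of 5 genes fell and 0 rose. Gps2, a core subunit, lay at 146, 114, 153 and 75.7 CPM in WT and between 60.2 and 72.9 CPM, with a median of 64.5 CPM, in KO, a log2 fold change of -0.90 ± 0.20 (SE, edgeR adjusted p = 0.082). The highest KO library, at 72.9 CPM, lay just under the lowest WT library, at 75.7 CPM, and the share of all genes with this pattern was not counted. Ncor1, the scaffold at the highest level of the list, had a log2 fold change of 0.21 and did not pass.

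The remaining 7 lists, 43 genes tested, had 0 genes past the threshold by edgeR, 8 at an unadjusted p under 0.05, and 1, Mrtfa, by DESeq2 with the fold-change threshold. Each is given with its median log2 fold change and with the log2 fold change of its most abundant gene, the one with the highest mean CPM over the 10 libraries. These were the class I HDACs (4 genes, median -0.22, most abundant Hdac1 at -0.01), the class IIb and IV HDACs (3 genes, median 0.21, most abundant Hdac10 at 0.21), the sirtuins (7 genes, median -0.06, most abundant Sirt2 at -0.33) and the 14-3-3 proteins (7 genes, median -0.02, most abundant Ywhaz at 0.18). They were also the calcineurin and PP2A phosphatases (7 genes, median 0.02, most abundant Ppp2r1a at 0.02), the MEF2 activators and cofactors (8 genes, median 0.53, most abundant Mapk14 at 0.25) and the other MADS box genes and SRF cofactors (7 genes, median 0.68, most abundant Elk3 at 0.46). Mef2b, the remaining MEF2 gene, had 17 counts in all libraries together. They lay in 2 of the 6 KO libraries, at up to 0.50 CPM, with 0 in every WT library, and no fold is given.

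**Figure D4:**
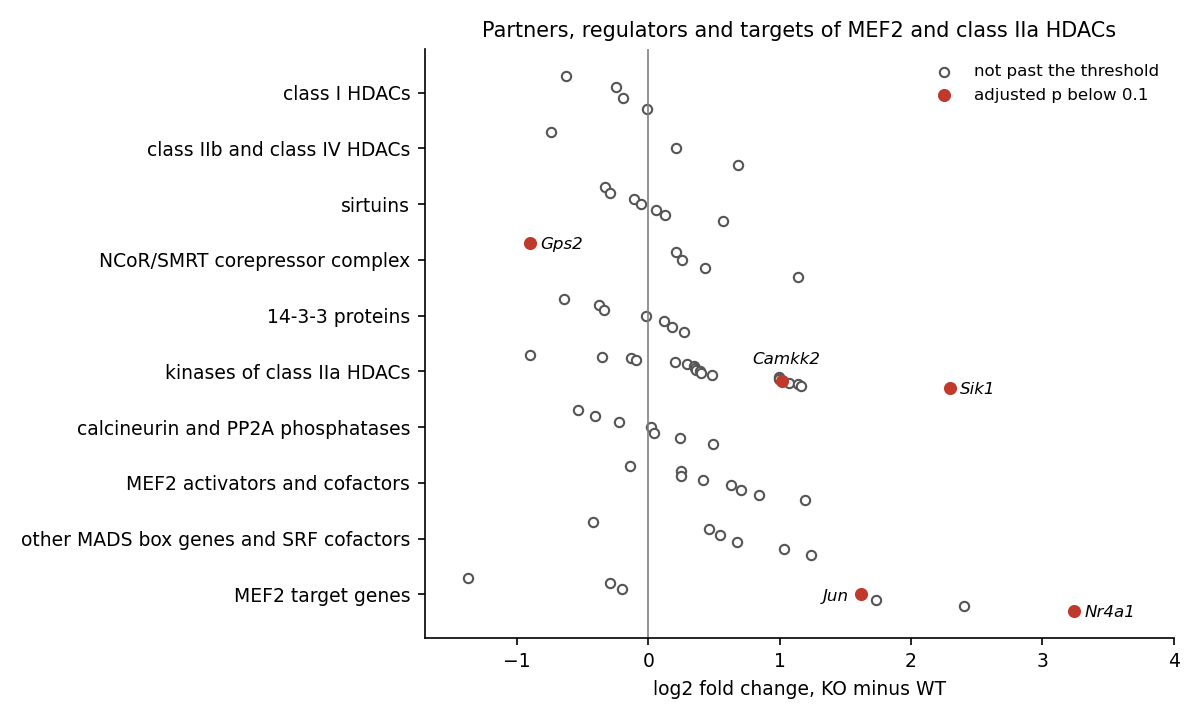
Log2 fold change, KO minus WT, of the tested genes in each of the 10 lists, one point per gene except Mef2b, with genes at an adjusted p below 0.1 filled in red. The filled points are Gps2 to the left of 0 and Camkk2, Sik1, Jun and Nr4a1 to the right.

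RefSeq promoter windows, 250 bases before to 50 bases after a start in GRCm38, were found for all 7 members, 13 windows in all. A loosened form of the MEF2 element, spelled CTANNNNTAG and its own reverse complement, was present in 3 of them and in 3.69% of all 32851 windows. With only A or T allowed at the 4 free positions, it was present in 2 of the 13, those of Mef2a and Hdac5, and in 0.557% of all windows, since the Hdac9 match holds G and C there. The first base of the loosened form lay 2 bases before the start in Mef2a, 20 bases before it in Hdac5 and 32 bases before it in Hdac9. The element of Mef2a therefore ran across the start. The lines show it in capitals on the minus strand, at chr7:67372826-67372885, chr11:102230158-102230217 and chr12:34528887-34528946. The core bound by PU.1, GAGGAA on either strand, was present in 6 of the 13 windows and in 28.3% of all windows, and a match shows only that the letters are there.
Mef2a: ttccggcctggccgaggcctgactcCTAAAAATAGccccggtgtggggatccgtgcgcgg
Hdac5: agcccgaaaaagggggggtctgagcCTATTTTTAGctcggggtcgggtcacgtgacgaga
Hdac9: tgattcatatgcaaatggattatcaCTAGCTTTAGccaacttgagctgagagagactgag

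Likeness between genes was described over the 10 libraries, with each genotype centred on its own mean, among 9495 genes at a mean of at least 10 CPM. Mef2c was most like Kcnk6 and Ero1b (Pearson r = 0.98 for each), Mef2a most like Xbp1 and Niban1 (r = 0.98 for each), and Mef2d most like Pcdhgc3 (r = 0.95). Hdac4 was most like Nudt13 (r = 0.96), Hdac5 most like Kcnip3 (r = 0.97), and Hdac7 most like Ptprk (r = 0.95) and Tm9sf2 (r = 0.92). Hdac9 was under that level. Between members the values ranged from -0.63 for Hdac4 with Hdac7 to 0.75 for Mef2c with Hdac5. The points are the same libraries and share their depth and cell make-up, and the named genes are the highest of many values over few points.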

How the data were processed

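Bulk SMART-Seq2 libraries of LT-HSCs were sequenced by the authors, who per the labels and methods used bcl2fastq 2.20 and kallisto 0.44.0 on a GENCODE transcriptome of GRCm38 (mm10). The authors deposited counts per gene, which are whole numbers, and for each library estimated counts and TPM per transcript. Transcripts were matched to GENCODE names on GRCm38 (99.7% matched), and 97.4% of genes had a length, the plain mean over their annotated transcripts. Gene counts were tested with edgeR 4.0.16 (R 4.3.3), TMM scaling and the robust quasi-likelihood test in 6 KO and 4 WT libraries, over the 16725 genes with at least 11 counts, at a Benjamini-Hochberg adjusted p below 0.1. These p-values measure the spread between the labelled samples. DESeq2 1.42.0 was an alternative. The members and lists were chosen with earlier results of these data known. Named were the members, regulator genes past the threshold or else the most abundant gene of the list, leading markers, the 2 genes most like each member (some are not reported here), and transcripts with at least 10% of a member's TPM. Log2 fold changes are KO minus WT. Depth was 5315435 to 30941726 counts, and no interval of counting error is given beside the spread between samples.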

Additional observations from a re-analysis of the deposited data

Results flagged for a closer look

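In 28 groups of values of the members (CPM, and the share of estimated counts on protein-coding transcripts, in each genotype), 4 held a library far from the rest by Dixon's criterion, where chance alone gives about 1 in 20. KO replicate 3 was highest for Mef2a with 99.0 CPM, the next being 65.0 CPM, and for Hdac9 with 9.80 CPM, the next being 5.85 CPM. KO replicate 5, the deepest library, had the lowest coding share for Mef2a, 78.2% against 88.1% in the next, and for Hdac4, 80.5% against 90.4%.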

How the results depend on the processing

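Over 21 alternatives, the number of members past the threshold was 1 in edgeR with its main settings, 2 (Mef2c and Hdac9) in DESeq2 with the fold-change threshold and 3 (also Hdac4) without it, 2 (Mef2c and Hdac5) on protein-coding transcripts alone, a setting chosen after seeing the data, and 0 with Xist as a covariate, with the offset for transcript length and at an adjusted p below 0.05. Leaving out 1 library gave 0 to 2 members. For the regulator genes, 5 in the main fit, the number was 7 in DESeq2 with the fold-change threshold and 12 without it. It was 4 with the length offset, 3 on protein-coding transcripts, 0 with Xist as a covariate and 0 at an adjusted p below 0.05. Leaving out 1 library gave 0 to 8 regulator genes. Among all genes, 0 were called without KO replicate 1, 2, 5 or 6 or WT replicate 1. In those fits 2580 to 2966 genes had an unadjusted p under 0.05. The cause was not tested. All members stayed above 0 in all alternatives except Hdac5, which was -0.20 with average-length offsets and -0.037 without WT replicate 1, where leaving out 1 library at a time gave -0.037 to 0.393. Of all genes tested, 667 were past the threshold in the main fit, 1136 in DESeq2 with the fold-change threshold and 2143 without it. The number was 330 with the length offset, 178 on protein-coding transcripts and 0 with Xist as a covariate. The order of the members' levels was the same in CPM per kilobase, and 5 of 7 members were mostly protein-coding by TPM and by estimated counts, although the share itself moved by more than the spread in 8 of 14 cases. No paired analysis was possible because the labels give the libraries no shared replicate numbers. Depth limits Hdac9, with 6 to 181 counts in a library, and Mef2b.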
